A study of Rattus norvegicus with 30 samples.

Results

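The 47 genes described here are named as proteins of the cytosolic ribosome or as relatives of these. They were followed in rat stomach, jejunum and colon after a dose of the chemotherapy drug irinotecan. A gene was taken when a probe set of the array carried exactly 1 gene symbol and that symbol began with Rpl or Rps and a number, or was Rplp0, Rplp1 or Rplp2. S6 kinases, the S19 binding protein and symbols marked as pseudogenes were left out. This gave 52 probe sets for 47 genes, of 14217 genes named by 1 symbol and 31042 probe sets tested. The brightest probe set stood for its gene. The set held 33 genes of the large 60S subunit, counting the stalk protein Rplp0, and 14 of the small 40S subunit. It is not a complete ribosome: 36 further probe sets carried a ribosomal protein symbol together with others and were not taken.

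Female DA rats aged 10 weeks received 1 intraperitoneal injection of irinotecan at 200 mg/kg under light halothane anaesthesia and were killed 1, 6, 24 or 72 h later, and undosed rats were killed at 0 h. No other genotype, allele or agent is named in the labels. Each time had 6 rats, 30 in all, and the RNA of a whole tissue was pooled from 3 rats, so each of the 15 groups of tissue and time had 2 pools on 1 array each. The pools are called pool 1 and pool 2 by their replicate number. They are separate sets of rats, but a pool averages over 3 animals, so p-values measure the spread between pools and not between rats. Values are log2 signals, on which a difference of 1 is a doubling.

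A ribosome is built from ribosomal RNA and a copy of nearly every ribosomal protein, and dividing cells such as those of the intestinal crypts make large numbers of them. The messenger RNAs of ribosomal proteins begin with a C followed by a run of C and T bases (the 5′ terminal oligopyrimidine or TOP tract), through which their translation and storage are controlled by the mTOR pathway and the RNA-binding protein Larp1. Free Rpl5, Rpl11 and Rpl23 can bind Mdm2, the protein that marks p53 for breakdown, which ties ribosome assembly to the response to damaged DNA. Irinotecan blocks topoisomerase I and so breaks DNA in dividing cells, and damage to the gut lining is its best known side effect.

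The start sites of the genes that the results turn on are shown first, because the TOP tract is what most of this family is known to share. Each line gives 30 bases in the direction of the gene from RefSeq's GRCr8 assembly of the rat genome, 20 before the annotated start and 10 from it onward, with its position and strand. Capitals mark a C followed by 5 or more bases that are C or T.

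Rpl14, chr8:129163600-129163629, plus strand: cggcagggcgggCCCTCTCCCTTCTCgctg
Rps9, chr1:74430428-74430457, minus strand: cgcgatccggcggccacgtttCTCTTTgtc
Rpl4, chr8:73566457-73566486, plus strand: agtgataagttCTTCCTTTTCCTgtgggag
Rpl6, chr12:41011681-41011710, minus strand: ttgtgtatttttacatcactagatggcggg
Rpl11, chr5:153560793-153560822, minus strand: gcccaggggacttgaagcttgtttggtgct
Rps3, chr1:163195767-163195796, minus strand: ttCCTTTCCTTTCagcggcgcgcggcagca
Rpl35, chr3:43165912-43165941, minus strand: ggccccgCCCCTTCCTCTTTCTCTCgaacc
Rpl22, chr5:168117941-168117970, plus strand: cctgcgtagtgcgCCCCCCTCCCTTTCTgc
Rplp0, chr12:46718381-46718410, minus strand: ctggtgaccgcaccgcaCTTCTCTCgccag
Rpl12, chr3:36661920-36661949, plus strand: tgggcggagcaacatccgtCTTTTCggctt
Rpl7l1, chr9:21695698-21695727, plus strand: gtggaagctgcagatgcattgtgggaagcc
Rps27l, chr8:76443638-76443667, plus strand: ttatagtttattcatttgtcattatttgtg

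The RefSeq table held 42 of the 47 genes, and Rpl27, Rpl7, Rpl23a, Rps29 and Rpl30 had no entry in it. A run of this kind stood in the window of 29 of 42 members, or 69.0%, against 7326 of 33469 windows of all genes, or 21.9%. On the opposite strand it stood in 5 of 42 members, or 11.9%, against 24.2% of all. Rpl6 and Rpl11 had no run in this window although they were among the members with the largest differences, and Rpl7l1 and Rps27l had none. Of the members with a bright probe set 26 of 33 had the run, and of those with a dim one 3 of 8. The motif CCGGAAG, which factors of the Ets family bind, was found on either strand in 10 of 42 members (23.8%) within 250 bases before to 50 after the start, against 8.75% of all such windows. AAGATGGC, a motif of the factor YY1, was found on either strand in 4 of 42 (9.52%) against 3.17%. The ends of these motifs can overlap by the letters AAG. An annotated start can lie some bases from the true one, so a missing run says only that these letters are not in the window. A run that is present need not begin at the annotated start, as a TOP tract would. That of Rps3 ends before it and that of Rps9 begins after its first base, so the 29 windows are not a count of TOP tracts.

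Most members lay at the top of the arrays' range. Over the 30 arrays 37 members had a mean signal above 11, from 11.46 for Rpl14 to 13.72 for Rps29, and all of these lay at or above the percentile 98.84 of the probe sets. Only 1.84% of all probe sets had a mean above 11. Rpl7l1, a relative of Rpl7, had a mean of 9.65. The other 9 lay between 5.70 and 7.61: Rps27l, Rps4y2, Rpl39, Rpl26l1, Rps13, Rpl30, Rpl3l, Rpl39l1 and Rpl28. This dim group mixed paralogs with genes such as Rps13, Rpl28 and Rpl30 that belong to the standard ribosome. A probe set's signal depends on its probes as well as on the transcript, so this order is one of probe-set signals and not of transcript amounts.

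**Figure D1:**
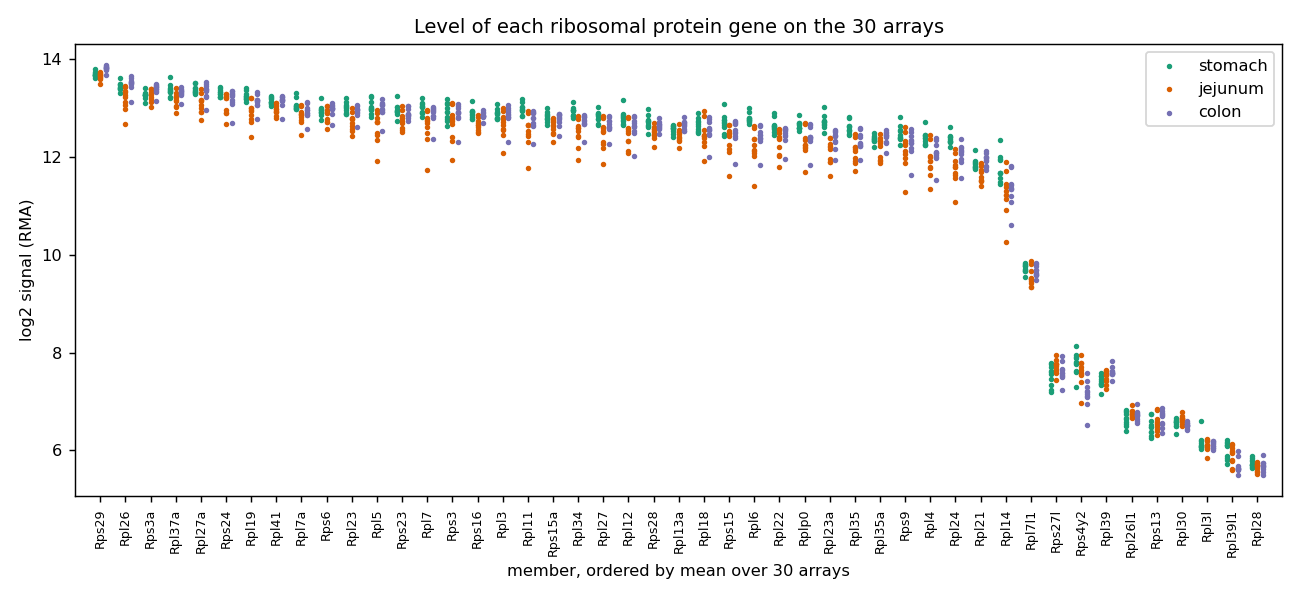
The log2 signal of each of the 47 members on each of the 30 arrays, with members ordered by their mean on the horizontal axis and coloured by tissue. Each point is 1 array, and 37 members have a mean above 11, Rpl7l1 a mean of 9.65 and 9 members means between 5.70 and 7.61.

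The members differed in how much they varied. The standard deviation of the 15 group means was highest for Rpl14 (0.37), Rps4y2 (0.33), Rpl6 (0.33), Rpl24 (0.32) and Rpl23a (0.31), and lowest for Rpl30 (0.070), Rpl3l (0.076), Rpl28 (0.077), Rpl26l1 (0.083) and Rps29 (0.083). Of the 5 that varied least 4 had dim probe sets, and Rps29 was the brightest member. A second, dimmer probe set was present for Rpl14, Rpl7, Rpl7l1, Rps24 and Rpl3, with means of 6.30, 7.39, 9.48, 7.34 and 7.64, and is compared with the brighter one beside the results it touches. The second probe set of Rpl3 carries the suffix _x_at, with which the maker marks probes that can also match other transcripts. Close copies of ribosomal protein genes are common in the rat genome, and any of these probe sets could read one of them.

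The tissues carried their own marker transcripts. The mean of the stomach list was 12.08 to 13.53 in the stomach, that of the jejunum list 13.21 to 13.59 in the jejunum, and that of the colon list 11.53 to 12.57 in the colon. Transcripts of pancreatic acinar cells stood apart on stomach 72 h pool 1, with a list mean of 13.20 against 8.86 on pool 2, and on colon 72 h pool 2, with 12.03 against 6.30 on pool 1. On the jejunum arrays that list stayed between 6.52 and 6.76. Stomach transcripts stood apart on colon 24 h pool 1, and squamous ones on stomach 72 h pool 2, with values given beside the results. The 3′ signal of the Gapdh control, which exceeds its 5′ signal more as RNA is more degraded, lay 0.82 above the 5′ signal on jejunum 24 h pool 1 and 0.56 above it on stomach 24 h pool 1. The other 28 arrays had gaps from -0.21 to 0.38.

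In the jejunum the ribosomal protein signals were lower at 6 and 24 h than in undosed rats, and at 72 h they were higher than at any earlier time. The median of the 47 members was 12.47 and 12.50 on the 2 arrays at 0 h and 12.44 and 12.51 at 1 h. It was 12.18 and 12.33 at 6 h, 11.86 and 12.20 at 24 h, and 12.70 and 12.69 at 72 h. The arrays at 6, 24 and 72 h did not overlap those at 0 h in this median, and the 24 h pools lay furthest apart. In bulk tissue fewer cells of a type and less RNA per cell cannot be told apart.

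**Figure D2:**
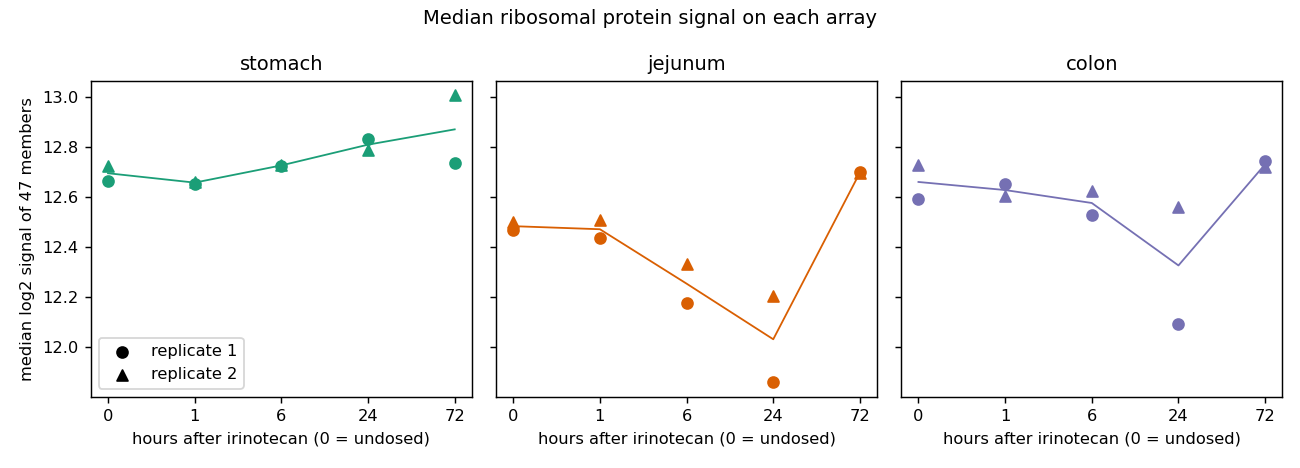
The median log2 signal of the 47 members on each array against hours after irinotecan (times equally spaced), 1 panel per tissue, with circles for pool 1, triangles for pool 2 and lines through the mean of the 2. The jejunum medians are 11.86 and 12.20 at 24 h and 12.70 and 12.69 at 72 h, while all stomach arrays lie between 12.65 and 13.01.

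At 24 h most members of the jejunum lay below undosed rats, but none passed the test. The log2 difference was negative for 44 of 47 members, with a median of -0.33 against -0.01 over all probe sets, and both 24 h arrays lay below both 0 h arrays for 36 members, against 23.5% of all probe sets. By limma's adjusted p none of the 47 passed 0.05, against 0.409% of all probe sets. An unadjusted p under 0.05 was found for 31 of 47 members, against 16.0% of all probe sets. The smallest adjusted p belonged to Rpl22, an RNA-binding protein of the large subunit, with 12.42 and 12.49 at 0 h and 11.79 and 12.04 at 24 h, a difference of -0.54 ± 0.10 (standard error) and an adjusted p of 0.067. Rps24 followed with 13.21 on both arrays at 0 h and 12.68 and 12.90 at 24 h (-0.42 ± 0.09, adjusted p = 0.0872), and Rpl23a with 12.16 and 12.27 against 11.62 and 11.90 (-0.46 ± 0.10, adjusted p = 0.0932). For all 3 the groups did not overlap. The dimmer probe set of Rps24 was opposite in sign, with a difference of 0.27 ± 0.10 (adjusted p = 0.251).

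Jejunum 24 h pool 1, the array with the widest Gapdh gap, was the lowest of the 10 jejunum arrays for 35 of 47 members, and pool 2 for 8. Pool 1 lay below pool 2 for 37 members. The pools also stood apart in the marker lists of smooth muscle (10.93 on pool 1 and 10.18 on pool 2), plasma cells (8.91 and 10.10) and macrophages (7.60 and 8.38). Without pool 1 the 24 h difference was negative for 45 members, and without pool 2 for 41, while the number that passed depended on the pool left out. The part of RNA quality or of these cells in the size of the 24 h difference was not tested.

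At 6 h the jejunum showed smaller differences of the same sign. They were negative for 42 of 47 members, the median was -0.17 against -0.02 over all probe sets, and both arrays lay below both 0 h arrays for 36 members, against 33.3% of all probe sets. None passed, against 3.49% of all probe sets, and 8 of 47 members had an unadjusted p under 0.05, against 19.9% of all probe sets. The 3 with the smallest p were Rpl35a (-0.29 ± 0.08, adjusted p = 0.0774), Rpl22 (-0.34 ± 0.10, 0.108) and Rps24 (-0.28 ± 0.09, 0.124). The dimmer probe set of Rps24 had a difference of 0.37 ± 0.10 (adjusted p = 0.0951), opposite in sign to the brighter one, and the mean of both was 0.04. Leaving the 24 h array of the widest Gapdh gap out of the jejunum fit left 42 of 47 differences negative at 6 h. It changed the spread that all times share, and with it the number that passed. At 1 h the median was 0.02 and no member passed, against 0.0354% of all probe sets, with 0 at an unadjusted p under 0.05, against 4.73%.

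At 72 h the jejunum stood above undosed rats. The difference was positive for 43 of 47 members, the median was 0.20 against -0.07 over all probe sets, and both 72 h arrays lay above both 0 h arrays for 40 members, against 29.7% of all probe sets. By limma 2 members rose, against 11.9% of all probe sets that rose. Rpl4, a protein that lines the exit tunnel of the large subunit, had signals of 12.00 and 11.92 at 0 h and 12.44 and 12.38 at 72 h, a difference of 0.45 ± 0.13 (adjusted p = 0.04). Rpl7l1 had 9.51 and 9.34 at 0 h and 9.88 and 9.82 at 72 h (0.42 ± 0.10, adjusted p = 0.0197), and its dimmer probe set differed by 0.47 ± 0.15 (adjusted p = 0.0548). Rpl18 came next with 0.38 ± 0.13 (adjusted p = 0.0564). The dimmer probe sets of Rps24 (0.72 ± 0.10, adjusted p = 0.00285) and Rpl7 (0.35 ± 0.10, 0.0367) passed although their brighter ones did not. Those of Rpl3 (0.18 ± 0.07, adjusted p = 0.0992) and Rpl14 (-0.23 ± 0.09, 0.0988) did not pass.

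The count of 2 was not stable. Leaving jejunum 24 h pool 1 out of the fit left 43 of 47 differences positive, but changed the spread that all times share and so the count. With arrays weighted by their quality 10 passed. Without jejunum 0 h pool 1 Rpl7l1 alone passed, and without 0 h pool 2 or either 72 h pool none did.

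Of the 15 comparisons of times within a tissue, that of 72 h with 24 h in the jejunum had the most calls: 35 of 47 members rose and none fell. Over all probe sets 8.77% rose and 4.15% fell in this comparison. The difference was positive for 45 members, ran from -0.14 to 1.03 and had a median of 0.50, against -0.06 over all probe sets. Both 72 h arrays lay above both 24 h arrays for 41 members, against 21.6% of all probe sets. One member, Rpl14, more than doubled.

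Rpl14 had signals of 10.26 and 11.30 at 24 h and 11.90 and 11.72 at 72 h, with 11.38 and 11.23 in undosed rats. The difference between 72 and 24 h was 1.03 ± 0.27 (adjusted p = 0.0362), or 2.05-fold. Pool 1 at 24 h was much the lowest of these arrays, and pool 2 at 24 h also lay below both 72 h arrays. The doubling therefore rests on pool 1, the array with the widest Gapdh gap, and the difference from pool 2 is smaller. The dimmer probe set of Rpl14 differed by -0.10 ± 0.09 (adjusted p = 0.491), and the mean of both probe sets by 0.47 (adjusted p = 0.0778), so the rise of Rpl14 rests on 1 probe set.

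Rps9, a 40S protein near the entry of the messenger RNA channel, had 11.28 and 12.06 at 24 h and 12.60 and 12.51 at 72 h (0.89 ± 0.20, adjusted p = 0.0232). Rpl4 had 11.34 and 11.77 against 12.44 and 12.38 (0.85 ± 0.13, adjusted p = 0.00511). Rpl6 had 11.40 and 12.14 against 12.63 and 12.59 (0.84 ± 0.20, adjusted p = 0.0263). In all 3 the 24 h pools lay far apart and the 72 h pools close together, with no overlap.

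Rps3, its neighbour at that entry, had 11.93 and 12.68 at 24 h and 13.10 and 13.09 at 72 h (0.79 ± 0.19, adjusted p = 0.0287). Among the members Rpl35 and Rpl35a had the smallest adjusted p in this comparison. Rpl35, at the tunnel exit, had 11.71 and 11.91 against 12.46 and 12.41 (0.62 ± 0.09, adjusted p = 0.004), Rpl35a differed by 0.52 ± 0.08 (0.00447), and Rpl22 had 11.79 and 12.04 against 12.55 and 12.57 (0.65 ± 0.10, 0.00535).

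Both subunits took part. Of the 32 members of the 60S body 24 rose, with a median of 0.57, and of the 14 members of the 40S subunit 10 rose, with a median of 0.41. The stalk protein Rplp0, which carries the factor-binding stalk of the large subunit, had 11.70 and 12.19 at 24 h and 12.70 and 12.68 at 72 h and rose by 0.74 ± 0.14 (adjusted p = 0.0106). Of the members with bright probe sets 32 of 37 rose, and of the dim ones 2 of 9, Rps13 (0.43 ± 0.09, adjusted p = 0.0191) and Rps27l (0.36 ± 0.10, adjusted p = 0.0466). Rpl7l1 rose by 0.42 ± 0.10 (adjusted p = 0.0281), and its other probe set by 0.83 ± 0.15 (0.0098).

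The dimmer probe sets of Rpl7, Rps24 and Rpl3 rose as well, by 0.38 ± 0.10 (adjusted p = 0.0393), 0.45 ± 0.10 (0.0245) and 0.32 ± 0.07 (0.0228), so 4 of the 5 second probe sets rose with the first. That of Rpl3 is the one marked as able to match other transcripts. The 12 members that did not pass were Rpl13a, Rps3a, Rpl41, Rps28 and Rps29 among the bright ones, and Rps4y2, Rpl39, Rpl26l1, Rpl30, Rpl3l, Rpl28 and Rpl39l1 among the dim ones. Rps29 had 13.60 and 13.50 at 24 h and 13.68 and 13.74 at 72 h (0.16 ± 0.08, adjusted p = 0.199). Rps4y2 differed by 0.50 ± 0.16 (adjusted p = 0.0702).

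**Figure D3:**
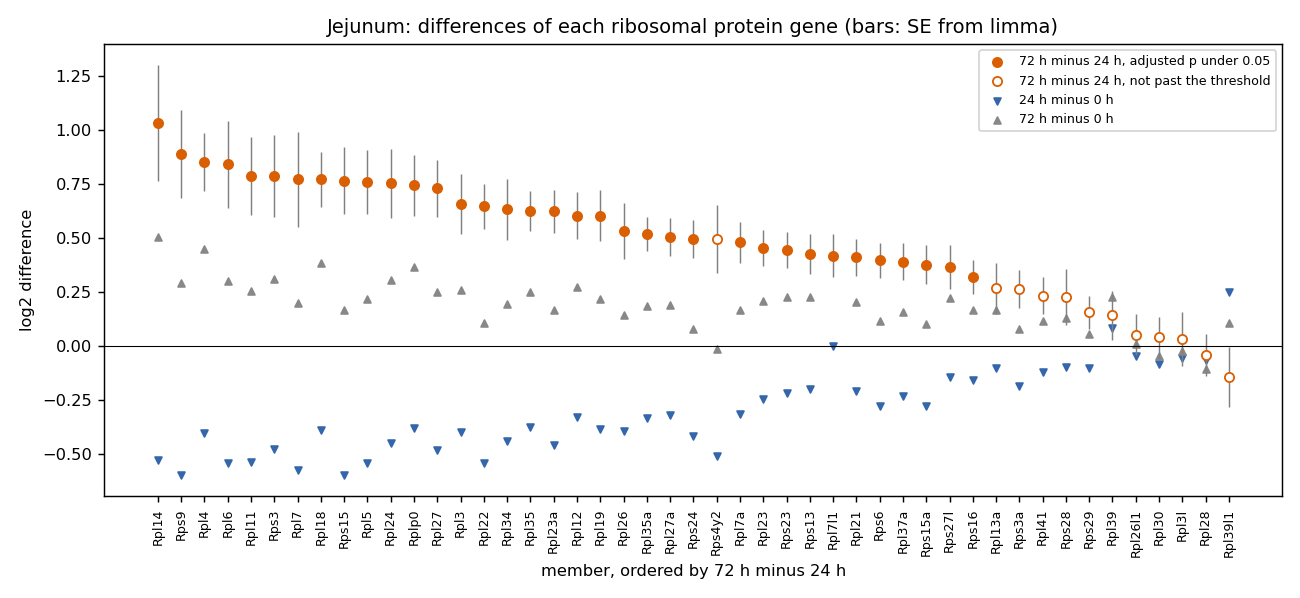
Log2 differences of the 47 members in the jejunum: 72 h minus 24 h as circles with limma's standard error (filled where the adjusted p is under 0.05), 24 h minus 0 h as downward triangles and 72 h minus 0 h as upward triangles. Filled circles mark the 35 members that rose, from Rps16 at 0.32 to Rpl14 at 1.03, and the 3 differences share arrays.

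The 35 calls and the sizes of the differences depended on single pools. Without jejunum 24 h pool 1, the array with the widest Gapdh gap, 44 of 47 differences were positive, and without pool 2 also 44. In the 37 members with pool 1 below pool 2 at 24 h, the difference from 72 h is smaller against pool 2 alone. The median of the 47 was 11.86 on pool 1 and 12.20 on pool 2. Without 72 h pool 1 only 4 of the 35 passed, and without 72 h pool 2 only 6, while 45 and 46 of 47 differences stayed positive. With quantile normalization 25 of the 35 passed and with array weights 26. The 24 h arrays serve in both the 24 h and the 72 h comparison, so the low values at 24 h and the rise to 72 h are not independent.

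Listed as Mdm2 binders were 3 members, which need not be all that bind it. Rpl5 had 12.72 and 12.71 at 0 h, 11.91 and 12.45 at 24 h and 12.91 and 12.97 at 72 h. It rose from 24 to 72 h by 0.76 ± 0.15 (adjusted p = 0.0123). Rpl11 had 12.66 on both arrays at 0 h, 11.78 and 12.47 at 24 h and 12.94 and 12.89 at 72 h (0.79 ± 0.18, adjusted p = 0.0233). Rpl23 had 12.70 and 12.79, then 12.44 and 12.57, then 12.92 and 13.00 (0.45 ± 0.08, adjusted p = 0.0103). All 3 were lowest at 24 h. Against undosed rats their differences at 72 h were 0.22 ± 0.15, 0.25 ± 0.18 and 0.21 ± 0.08, and none passed, with adjusted p of 0.294, 0.32 and 0.0984.

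Of 4 genes listed for the p53 pathway 3 rose in the jejunum at 6 h, when no ribosomal protein gene passed. Ccng1, a cyclin induced by p53, was higher than at 0 h by 1.57 ± 0.21 at 6 h (adjusted p = 0.00874) and 1.61 ± 0.21 at 72 h (0.00197) in the jejunum. Mdm2 rose by 0.46 ± 0.09 at 6 h (adjusted p = 0.0251) and Cdkn1a, which halts the cell cycle, by 0.91 ± 0.21 (0.0476).

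The size of the rise varied with the signal of the probe set. Over the 37 bright members the correlation of the 72 h minus 24 h difference with the mean signal was -0.565 in the jejunum (Spearman -0.516) and -0.552 in the colon (Spearman -0.547). Rpl14, the dimmest of the 37, had the largest difference in both tissues. Rps29, the brightest, had the smallest of the 37 in the jejunum, and Rpl13a had it in the colon, at -0.006. These points are genes that share the same arrays, and the part of the array's upper signal limit in this relation was not tested. The dim members lay near 0, except Rps4y2, Rps13 and Rps27l.

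**Figure D4:**
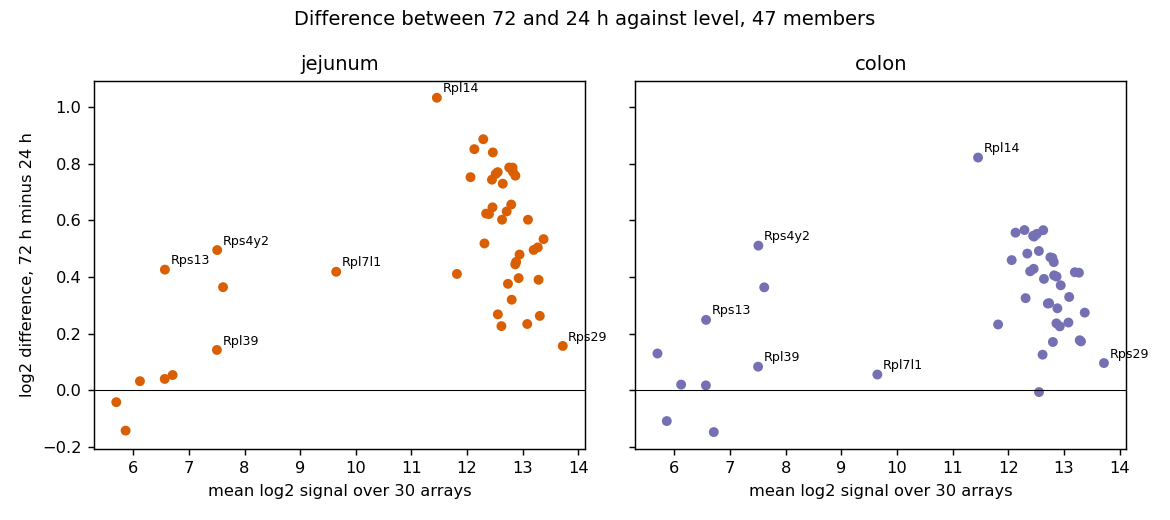
The log2 difference between 72 and 24 h of each member (vertical axis) against its mean log2 signal over 30 arrays (horizontal axis) in jejunum and colon. In both tissues Rpl14 is highest, at 1.03 and 0.82, and Rps29, the brightest member, lies at 0.16 and 0.10.

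In the colon fewer members passed. The median of the 47 was 12.59 and 12.73 at 0 h, 12.65 and 12.61 at 1 h, 12.53 and 12.62 at 6 h, 12.09 and 12.56 at 24 h and 12.74 and 12.72 at 72 h. Only pool 1 at 24 h lay clearly below the others, and both 24 h arrays lay below both 0 h arrays. Colon 24 h pool 1 was the lowest of the 10 colon arrays for 38 members and lay below pool 2 for 42. The Gapdh gap was 0.35 on pool 1 and 0.38 on pool 2, and the pools stood apart in several marker lists. The stomach list mean was 9.56 on pool 1 and 7.55 on pool 2, against 6.34 to 7.46 on the other colon arrays, and 2 of its 7 genes were higher than at 0 h, Gkn1 by 3.49 ± 0.51 (adjusted p = 0.0118) and Gkn2 by 3.73 ± 0.76 (0.0489). The jejunum list mean was 8.06 on pool 1 and 10.01 on pool 2, that of plasma cells 8.57 and 9.70, and that of macrophages 7.51 and 8.77. The part of these transcripts in the members was not tested.

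At 24 h the colon's differences from 0 h were negative for 44 of 47 members with a median of -0.26, against 0.03 over all probe sets. The arrays did not overlap and were lower for 27 of 47 members, against 21.4% of all probe sets. None passed limma's test, against 1.14% of all probe sets, and 17 of 47 members had an unadjusted p under 0.05, against 16.7% of all probe sets. Rpl22 had 12.52 and 12.58 at 0 h and 11.96 and 12.34 at 24 h (-0.40 ± 0.12, adjusted p = 0.155), Rpl11 differed by -0.41 ± 0.13 (0.174) and Rpl12 by -0.42 ± 0.14 (0.182). Without pool 2 at 24 h 45 differences were negative and without pool 1 40, while the number that passed depended on the pool left out.

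From 24 to 72 h 3 members rose in the colon, against 4.40% of all probe sets. The difference was positive for 44 of 47, the median was 0.33 against -0.05 over all probe sets, and both 72 h arrays lay above both 24 h arrays for 39 members, against 22.1%. Rpl14 had 10.61 and 11.35 at 24 h and 11.82 and 11.79 at 72 h (0.82 ± 0.21, adjusted p = 0.0435), and again its dimmer probe set differed by -0.07 ± 0.13 (0.74). Rpl12, at the base of the stalk, had 12.02 and 12.49 against 12.83 and 12.81 (0.57 ± 0.14, adjusted p = 0.0416). Rpl35 had 11.93 and 12.27 against 12.59 and 12.57 (0.48 ± 0.12, adjusted p = 0.0389). For these 3 genes the 24 and 72 h arrays did not overlap, and the 72 h pools lay close together. The dimmer probe set of Rpl7l1 also passed (0.58 ± 0.15, adjusted p = 0.0467), while its brighter one differed by 0.06. Those of Rpl7, Rps24 and Rpl3 did not pass.

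The count of 3 was not stable. In 1 fit of all 30 arrays it was 14 and with array weights 0. It also moved with each 24 or 72 h colon pool left out, while 42 to 44 of the 47 differences stayed positive. The 72 h pools had pancreatic list means of 6.30 and 12.03 and member medians of 12.74 and 12.72. Against 0 h no member passed at 1, 6 or 72 h in the colon, when 0%, 1.19% and 1.32% of all probe sets did, and the members with an unadjusted p under 0.05 numbered 0, 0 and 1, against 14.9%, 14.1% and 17.2% of all probe sets. The median differences at these times were -0.05, -0.08 and 0.07.

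In the stomach no member passed at any time. Against 0 h the median differences were -0.04 at 1 h, 0.06 at 6 h, 0.06 at 24 h and 0.15 at 72 h, and 2, 0, 3 and 5 members had an unadjusted p under 0.05 in limma, against 5.72%, 8.83%, 8.34% and 7.56% of all probe sets. By the adjusted p few probe sets passed there at all, 0.0161%, 0.0322%, 0.0161% and 0.00644% of all probe sets. At 72 h the difference was positive for 44 of 47 members, and both arrays lay above both 0 h arrays for 21, against 13.5% of all probe sets. After quantile normalization 36 were positive and 11 negative.

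Rps9 had 12.25 and 12.38 at 0 h in the stomach and 12.56 and 12.81 at 72 h (0.37 ± 0.12, adjusted p = 0.656). Rpl14 had 11.49 and 11.68 against 11.94 and 12.34 (0.55 ± 0.19, adjusted p = 0.656). The groups did not overlap in either gene, and pool 2 was the higher at 72 h in both. That array was the highest of the 10 stomach arrays for 38 of 47 members, and without it 30 differences were positive and 17 negative. Its list mean for squamous epithelium, the lining of the rat forestomach, was 11.38, against 7.95 on pool 1 and 7.04 to 9.46 on the other 8 stomach arrays, although none of the 7 measured squamous genes passed at 72 h. Its macrophage list mean was 9.35 against 8.68 on pool 1, its pancreatic list mean 8.86 against 13.20 and its Gapdh gap -0.21 against 0.19. The part of any of these in the members was not tested. Between 24 and 72 h no member passed, against 0.00322% of all probe sets, with 0 at an unadjusted p under 0.05, against 15%. Here 42 of 47 differences were positive, but 22 were after quantile normalization.

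The tissues were not shown to differ in their response. An F test of the tissue differences at each time, in 1 limma fit of all 30 arrays, called 0 members at 1, 6, 24 and 72 h, when 0.00322%, 0.251%, 0.229% and 2.28% of all probe sets passed. At an unadjusted p under 0.05 the counts were 1, 0, 17 and 2 of 47 members, against 9.07%, 13.7%, 13.2% and 19.6% of all probe sets. The smallest adjusted p at 24 h was 0.0895, for Rpl35, whose differences from 0 h were 0.23 ± 0.10 in the stomach, -0.37 ± 0.09 in the jejunum and -0.33 ± 0.12 in the colon. Without jejunum 24 h pool 2 the count at 24 h was 4, and without colon 24 h pool 2 it was 1. At 72 h it was 1 without stomach 72 h pool 1.

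Undosed tissues differed in a few members. Stomach was higher than jejunum in 4, against 17.3% of all probe sets. Rpl24, which bridges the subunits, had 12.30 and 12.42 in the stomach and 11.80 and 11.83 in the jejunum (0.54 ± 0.15, adjusted p = 0.0109). Rpl23a differed by 0.37 ± 0.13 (adjusted p = 0.0373), Rpl35 by 0.30 ± 0.10 (0.0264) and Rpl7l1 by 0.27 ± 0.10 (0.0383). The median over the 47 was 0.14, with 40 positive.

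Jejunum was lower than colon in 6 members, against 19.9% of all probe sets, and higher in 1, against 25.8%. Rpl21 had 11.58 and 11.74 in the jejunum and 11.99 and 12.01 in the colon (-0.34 ± 0.10, adjusted p = 0.0115). The others were Rpl27a (-0.27), Rpl41 (-0.25), Rpl35 (-0.25), Rpl35a (-0.23) and Rps29 (-0.22). Between stomach and colon 2 members differed, against 33.1% of all probe sets: Rps4y2, and Rps13 with 6.38 and 6.48 against 6.80 and 6.69 (-0.32 ± 0.11, adjusted p = 0.026). In each of these counts the members' share was below that of all probe sets.

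Rps4y2 was called between the colon and each of the other tissues. It had 7.92 and 7.79 in undosed stomach, 7.58 and 7.79 in jejunum and 7.09 and 7.14 in colon, so the colon arrays lay below all others. The stomach minus colon difference was 0.74 ± 0.22 (adjusted p = 0.0151) and the jejunum minus colon difference 0.57 ± 0.22 (0.0411). The call against jejunum was lost when any of the 4 pools concerned was left out, and that against stomach without stomach pool 1, colon pool 1 or colon pool 2. Its symbol names a Y-linked form of S4, but RefSeq's GRCr8 assembly places the start of this gene on chromosome 4. All rats were female, and which S4 transcript this dim probe set reads was not tested.

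These tissue counts were small and moved with single pools. Leaving out stomach or jejunum 0 h pools in turn left 1 or 2 calls between stomach and jejunum, and leaving out 0 h pools left 0 to 2 between either and the colon. Without stomach 0 h pool 2 none of the 4 calls between stomach and jejunum was kept.

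The paralogs gave few signals. Rps27l, a relative of Rps27 that p53 is known to induce, had 7.80 and 7.77 in undosed stomach, 7.23 and 7.60 at 1 h, 7.56 and 7.34 at 6 h and 7.20 and 7.46 at 24 h. These lay below the 0 h arrays at each of these times, but the differences of -0.37, -0.33 and -0.45 (each ± 0.15) had adjusted p of 0.871, 0.57 and 0.571. In the jejunum at 6 h, when Ccng1 and Mdm2 rose, Rps27l differed by 0.05 ± 0.10 (adjusted p = 0.803). Rpl39l1, a relative of Rpl39, had 5.63 and 5.81 in undosed jejunum and 6.12 and 6.11 at 6 h (0.40 ± 0.14, adjusted p = 0.157), near the bottom of the array's range, and Rpl39 itself differed by 0.24 ± 0.11 (0.272). Rpl3l, a form of Rpl3 known from muscle, and Rpl26l1 differed by 0.06 ± 0.12 and -0.10 ± 0.09 at 6 h. Rps27, Rpl22l1, Rpl36al and Rps4x were not among the members.

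Other genes of the ribosome and of translation were taken from lists. Of 3 ribosomal protein genes whose symbols the rule misses only Rpsa was measured, and it differed by 0.56 ± 0.16 between 72 and 24 h in the jejunum (adjusted p = 0.0516). Of 14 measured translation factors and other TOP genes 11 rose between 24 and 72 h in the jejunum and none fell, with a median of 0.69, where that of the ribosomal proteins was 0.50. Eef1d, a subunit of the elongation factor exchange complex, rose by 1.07 ± 0.14 (adjusted p = 0.00297) and Rack1, a scaffold on the 40S subunit, by 0.74 ± 0.14 (0.0107). Eef1a1, which brings transfer RNA to the ribosome, differed by 0.17 ± 0.07 (0.16). Against 0 h 3 of the 14 rose at 72 h.

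Ribosome biogenesis genes rose against both 0 and 24 h. In the jejunum 45 of 49 rose between 0 and 72 h and none fell, with a median of 0.70, against 2 of 47 ribosomal proteins and a median of 0.20. At 24 h their median was 0.01 where that of the ribosomal proteins was -0.33. Ncl, the nucleolar protein nucleolin, had 10.11 and 10.02 at 0 h, 9.76 and 9.98 at 24 h and 11.42 and 11.12 at 72 h, and rose over 0 h by 1.20 ± 0.12 (adjusted p = 0.000733). Ddx21, a nucleolar helicase, rose by 1.23 ± 0.10 (0.000464) and Fbl, which methylates ribosomal RNA, by 0.95 ± 0.30 (0.0479). Between 24 and 72 h 40 of 49 rose in the jejunum, with a median of 0.65 where that of the ribosomal proteins was 0.50, and in the colon 14 rose and 1 fell. Whether these lists differ from the ribosomal proteins was not tested.

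Mitochondrial ribosomal protein genes, which serve the separate ribosome of the mitochondrion, were also lower at 6 and 24 h and higher at 72 h in the jejunum in a part of the list. Their medians were -0.27 at 6 h with 6 of 73 lower, -0.38 at 24 h with 4 lower, and 0.23 at 72 h with 16 higher. Between 24 and 72 h 59 of 73 rose, with a median of 0.57, and in the colon 11 rose. Of 11 genes that control TOP translation and the making of ribosomes 5 rose and 1 fell in the jejunum at 72 h. Among them Eif4ebp1, an mTOR target that holds back translation, rose by 0.65 ± 0.10 (adjusted p = 0.00441), Myc by 0.52 ± 0.16 (0.0426) and Rps6kb1 by 0.45 ± 0.10 (0.0176). Sesn1, an inhibitor of mTOR signalling, fell by 0.72 (adjusted p = 0.000884), and Mtor itself (0.06 ± 0.12) and Larp1 (0.18 ± 0.11) did not pass. Other listed inhibitors of that signalling went the opposite way to Sesn1, with both 72 h arrays above both 0 h arrays. Ddit4 had 7.51 and 7.75 at 0 h and 8.53 and 8.22 at 72 h. Sesn2 had 8.42 and 8.51 against 8.99 and 8.75, and Deptor 7.87 and 7.71 against 8.09 and 8.17.

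**Figure D5:**
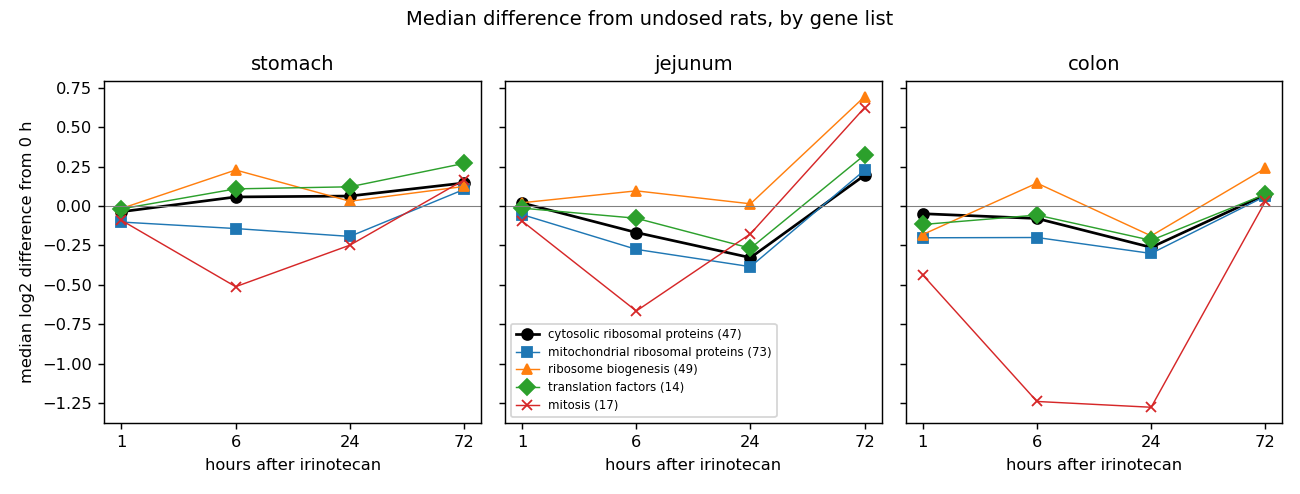
Median log2 difference from undosed rats of 5 gene lists at 1, 6, 24 and 72 h (times equally spaced), 1 panel per tissue, with the number of measured genes in the key. In the jejunum the ribosomal proteins lie at -0.33 at 24 h and 0.20 at 72 h, ribosome biogenesis genes at 0.01 and 0.70, and mitosis genes at -0.67 at 6 h.

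Marker transcripts of dividing cells and of other cell types moved over the same times. In the jejunum 14 of 17 mitosis genes fell at 6 h (median -0.67), none passed at 24 h (-0.18), and 15 rose at 72 h (0.63). The mean of that list was 8.24 to 8.42 at 0 h, 7.56 to 7.64 at 6 h, 8.12 to 8.18 at 24 h and 8.95 to 8.99 at 72 h, so its lowest time was 6 h and that of the ribosomal proteins 24 h. In the colon the same list had medians of -1.24 at 6 h and -1.28 at 24 h, with 16 and 15 of 17 lower, while the ribosomal proteins differed by -0.08 and -0.26.

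Macrophage markers were higher in the jejunum at 72 h, with 5 of 9 above 24 h and list means of 8.90 to 9.06 against 7.60 to 8.38. Smooth muscle markers had means of 10.00 to 10.22 at 0 h, 10.93 on pool 1 and 10.18 on pool 2 at 24 h, and 10.74 to 10.85 at 72 h, with 3 of 8 higher than at 0 h and 1 higher than at 24 h. In the colon 4 of 8 smooth muscle genes fell between 24 and 72 h and none rose. Of 4 measured jejunum markers none passed at 72 h against 0 h, and Anpep fell against 24 h. The part of these cells in the ribosomal protein differences was not tested.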

How the data were processed

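The authors deposited log2 signals per probe set of an Affymetrix rat array, and the submitters' processing notes name RMA as the method. Its version and the batches it was run in are not given in the sources used. RMA scales arrays to a common distribution, so a shift shared by most genes is not seen. The values span 3.53 to 14.32, the medians of the arrays 6.967 to 7.056 and the correlations between the pools of a group 0.9469 to 0.9959. No further scaling was applied.

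Of the probe sets 57 array controls were left out. Symbols come from the platform's annotation, and 45 of the 47 members were matched by gene identifier to RefSeq's rat gene table, with no symbol changed. Tissue, time and replicate number come from the sample titles. With limma 3.58.1 under R 4.3.3 the 5 times of a tissue were fitted together, and undosed tissues and tissue differences were fitted over 30 arrays. Tissues of a time come from the same rats, which that fit leaves out of account. P was adjusted by Benjamini-Hochberg over 31042 probe sets with a threshold of 0.05, two-sided. Errors are limma's standard errors.

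The members and lists were chosen with earlier results of these data known. Members described in full were chosen by rule: up to 6 called members with the largest change, or the 3 smallest p. The listed Mdm2-binding, stalk and paralog members and the 5 most and least variable were taken as well. The limma fit was tested on simulated data. Alternatives tried were dropping dim probe sets, quantile normalization, a variance trend with robust fitting, 1 fit of all arrays, a replicate block, the mean of all probe sets, array weights and leaving out each array. Leaving out arrays with a Gapdh gap over 0.5 was added after seeing the data.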

Additional observations from a re-analysis of the deposited data

How the results depend on the processing

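The count of members past the threshold stayed within 1.5 times of the reported one under all settings other than leaving out single pools, with these exceptions. Array weights gave 12 in the jejunum at 6 h, of which 11 were lower and 1 higher. They gave 10 in the jejunum at 72 h and 0 in the colon between 24 and 72 h. Leaving out arrays with a Gapdh gap over 0.5 gave 14 in the jejunum at 6 h and 14 at 72 h. The replicate block gave 1 in the jejunum at 72 h against 0 h, where Rpl4 was lost with an adjusted p of 0.0572. Within the limit of 1.5 times, it gave 32 between 24 and 72 h there, where Rpl7, Rpl14 and Rps27l were lost. In 1 fit of all 30 arrays the colon had 14 between 24 and 72 h. Between undosed stomach and jejunum quantile normalization gave 11 and a variance trend with robust fitting 1. Dropping dim probe sets gave 1 between undosed stomach and colon, because Rps13 was then not tested, and the trend gave 3 between undosed jejunum and colon. Except for that case the cause was not tested.

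Leaving out 1 pool at a time gave 0 to 28 members in the jejunum at 24 h, 0 to 1 at 72 h against 0 h and 4 to 37 at 72 h against 24 h. In the colon it gave 0 to 11 at 24 h and 0 to 27 between 24 and 72 h. Between undosed tissues it gave 1 to 2 for stomach and jejunum, 0 to 2 for stomach and colon and 0 to 2 for jejunum and colon. Tissue differences in response gave 0 to 4 at 24 h and 0 to 1 at 72 h, and all other counts were 0 throughout. A lone pool was assumed to vary like the other groups. The share of all probe sets that passed is not given here for these refits or for the settings above. Their counts therefore show only how far the calls moved.

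Rps24 in the jejunum at 6 h changed sign, to 0.042, with the mean of its probe sets. Among single members and settings other than left-out pools 591 values kept direction and side of the threshold, 51 lost it and 10 gained it. With a pool left out 235 kept both, 124 lost the call and 5 gained it.

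The replicate numbers were not taken to pair the pools. The difference between pools correlated between times from -0.582 to 0.373 in the jejunum, from -0.3 to 0.361 in the colon and from -0.05 to 0.434 in stomach. Between tissues it correlated from 0.319 to 0.503 at 24 h and from -0.215 to 0.386 at other times. Whether pool 1 at 24 h held the same rats in each tissue is not in the labels. The low values of pool 1 in jejunum and colon at 24 h may therefore not be independent. With 2 arrays a group the number of arrays limits the precision. Dim probe sets near the background can understate a change, although 2 of the 9 dim members rose between 24 and 72 h in the jejunum.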
